A study of Mus musculus with 10 samples.

Results

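The tuft cell genes described here are Dclk1, Trpm5, Gnat3, Plcg2, Alox5ap, Ptgs1, Rgs13, Avil, Gfi1b and Il17rb. This list of 10 genes was set by name, with earlier results of these data known. A probe belonged to the list where the array's gene name, or an older symbol or RefSeq accession of the same gene, matched one of them. This gave 16 probes for 9 of the 10 genes, among 41174 distinct probes and 28034 gene names on the array. No probe carried the name or accession of Gnat3, the taste-type G protein alpha subunit, so it has no value here. Dclk1 had 7 probes, Il17rb had 2 and the other 7 genes had 1 each. The list was followed in 3 comparisons of mouse small intestine. The first set crypts, the epithelial pockets that hold the stem cells, from mice in which Lgr4 and Lgr5 had been deleted with the xenobiotic-inducible P450Cre 1 day earlier against wild type crypts on the same 2-colour array. It held 2 biological replicates, each on 2 arrays with the dyes swapped. The second set 2 organoid cultures from VillinCre Lgr4fl/fl-Lgr5fl/fl mice, 1 day after deletion, against 2 cultures from VillinCre wild type mice induced with tamoxifen for 1 day. The third set 1 organoid culture grown for 1 day without R-spondin (EGF and Noggin, labelled EN) against 1 culture with it (ENR). Cre under the Villin promoter acts in the intestinal epithelium, and organoids hold epithelium only. Whether the mice that gave wild type crypts were also induced is not stated in the labels.

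Tuft cells are rare chemosensory cells of the gut epithelium that share parts of the taste cell's signalling chain. A ligand at a receptor acts through gustducin and a phospholipase C to release calcium, which opens the cation channel TRPM5, and the cells then release eicosanoids and the cytokine IL-25. Lgr4 and Lgr5 are receptors for R-spondin, which strengthens the Wnt signal that keeps crypt stem cells dividing, and tuft cells are among the progeny of those stem cells. In mixed tissue, fewer tuft cells and less RNA of a gene per tuft cell cannot be told apart. Several of these genes are also known in blood cells, among them Plcg2 and Rgs13 in B cells, Ptgs1 in platelets and Alox5ap in myeloid cells.

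Between 40.2% and 63.1% of gene probes were well above background in Cy5 across the 10 arrays. On the 4 organoid deletion arrays the Cy3 channel, which held the reference RNA, had 3.66% to 4.26% of gene probes above background, and its negative controls had medians of 5883 to 6564 against 1830 to 1933 for gene probes. The deletion in organoids is therefore given on the Cy5 signal, with the ratio to the reference as a second value. Across probes, the dye-swapped pair of crypt replicate 2 had a correlation of 0.92, whereas that of replicate 1 had 0.36, no closer than arrays taken from opposite replicates (0.36 to 0.43). The deleted genes followed the labels by the probes tested. In crypts the log2 change, deleted over wild type, was -1.56 for Lgr4 and -1.68 for Lgr5 (limma adjusted p = 0.0890 and 0.0882). In organoids the Lgr5 signal was at least 12.4-fold lower in deleted cultures than in wild type replicate 1, since replicate 2 had no usable spot. The Wnt target Axin2 was at least 7.0-fold lower in deleted than in wild type cultures. Without R-spondin, Lgr5 was at least 82.1-fold and Axin2 at least 8.71-fold lower than with it. Each of these bounds sets the bright group's mean against the dim probe's own signal or the lowest signal called above background, whichever was higher.

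Dclk1, a microtubule-associated kinase and the usual histological marker of tuft cells, had 7 probes that the annotation ties to different transcripts. The probes lie along the gene on the plus strand of chromosome 3, and positions here are those the array annotation gives in the mm9 build. Probe A_52_P217807 joins sequence from chr3:55184765-55254910 and matches NM_019978 and NM_001111053. Probe A_52_P21628 joins sequence from chr3:55320895-55337537 and matches NM_019978 and NM_001111051. They are printed in full because each crosses an intron and so reads spliced Dclk1 RNA of particular transcripts, and Avil is added as the only other member whose probe crosses an intron, within chr10:126453541-126454065 (plus strand).
Dclk1 A_52_P217807: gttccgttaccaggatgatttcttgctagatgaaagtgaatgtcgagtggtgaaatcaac
Dclk1 A_52_P21628: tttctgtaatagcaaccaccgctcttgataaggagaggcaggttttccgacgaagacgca
Avil A_51_P166339: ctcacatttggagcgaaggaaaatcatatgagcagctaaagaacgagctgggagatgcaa

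Neither intron-crossing Dclk1 probe was reliably detected. A_52_P217807 was above background in 0 of 4 deleted and 1 of 4 wild type crypt measurements, and A_52_P21628 in 1 of 4 deleted and 0 of 4 wild type measurements. Of the organoid cultures, A_52_P217807 was above background in the culture without R-spondin, where its spot was dropped as an outlier, and in no other, and A_52_P21628 in none. Probe A_52_P26991, which matches NM_001111053 alone (chr3:55271688-55271747), was above background in 3 of 4 crypt measurements of each group and in no organoid culture. Probe A_52_P1164065, at chr3:55280392-55280451 with no RefSeq transcript in the annotation, was above background nowhere. The 3 probes that were above background in every crypt and every organoid sample were A_52_P563818 (chr3:55340263-55340322), A_51_P270355 (chr3:55340456-55340515) and A_51_P193036 (chr3:55342815-55342874), the last 3 along the gene. All 3 match NM_019978, NM_001111052 and NM_001111051. The Dclk1 values below therefore come from the end of the gene, and no probe nearer its start was above background in every sample of any group with more than 1 sample.

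**Figure D1:**
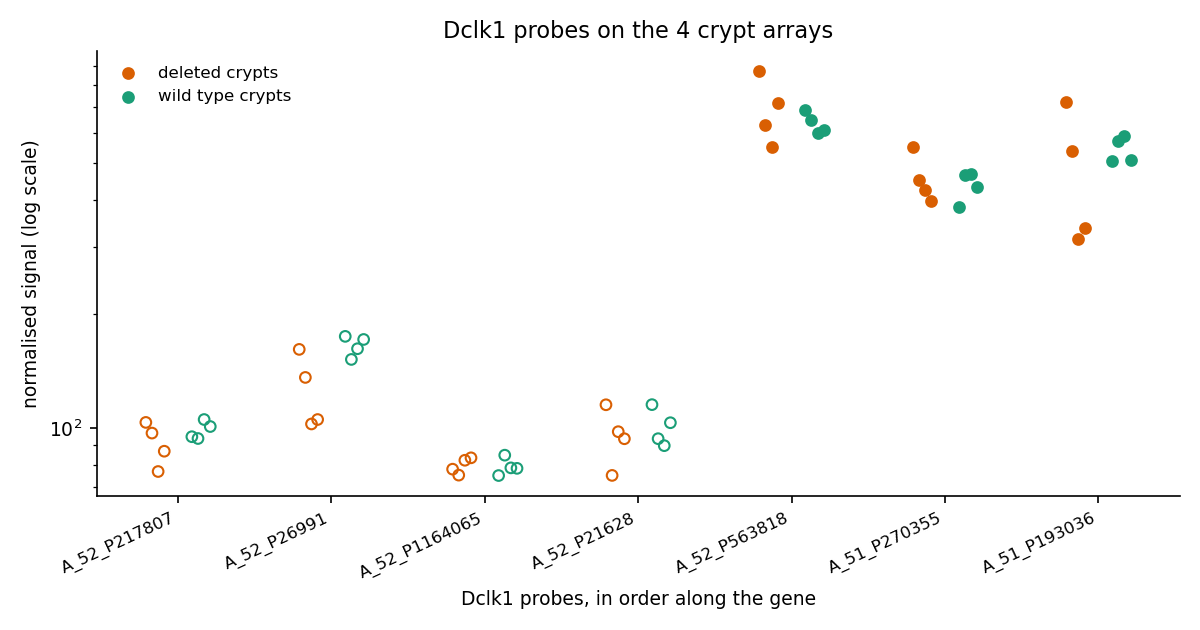
Normalised signal (log scale) of the 7 Dclk1 probes, in order along the gene, in deleted (left of each pair, orange) and wild type crypts (right, green), 1 point per array; filled points mark probes above background on all 4 arrays of that group. The 3 probes at the end of the gene are filled in both groups and the other 4 are open.

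In crypts, 1 day after deletion of both receptors, none of the 7 tuft cell genes that could be tested passed the adjusted threshold of 0.05, where 0.0492% of 12204 genes passed (6 higher and 0 lower in deleted crypts). The median log2 change of the 7 genes was 0.17, against -0.02 over all genes, with 5 above 0 and 2 below. Both replicates were above 0 for 4 of them, Plcg2, Ptgs1, Trpm5 and Dclk1 (by the probe tested), as for 30.1% of all genes. At an unadjusted p under 0.05 there were 2 members, Plcg2 and Ptgs1, both higher in deleted crypts, where 6.43% of all genes were higher at that level. Gfi1b and Il17rb were above background on 3 of 4 arrays in each group and were not tested. Avil was tested through the deleted group alone, above background in 4 of 4 deleted and 3 of 4 wild type measurements. With both groups required, 6 of the 7 members remained, with a median of 0.34, 4 above 0 and 2 below. The number of arrays limits the precision, and 13.7% of all genes reached an unadjusted p under 0.05 in either direction.

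Plcg2, a phospholipase C of immune receptor signalling that tuft cells also express, was read at chr8:120158980-120159037 (plus strand). Its normalised signals in replicate 1 were 13611 and 11168 in deleted crypts, against 6641 and 7064 in wild type crypts. In replicate 2 they were 18389 and 17048 in deleted crypts, against 6061 and 5502 in wild type crypts. Every deleted measurement was above every wild type one, which 8.44% of the genes tested showed. The log2 change was 0.85 in replicate 1 and 1.62 in replicate 2, with a mean of 1.23 (SE 0.27, n = 2), or 2.35-fold, and an adjusted p of 0.189 by limma. Without replicate 1, whose dye pair agreed poorly, the log2 change was 1.62, and without replicate 2 it was 0.85. Each of these leaves 1 crypt replicate and so has no spread of its own.

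Trpm5, the calcium-gated cation channel of taste-type signalling, was read at chr7:150257715-150257774 (minus strand). Its signals in replicate 1 were 702 and 516 in deleted crypts, against 486 and 513 in wild type crypts. In replicate 2 they were 866 and 1084 in deleted crypts, against 496 and 554 in wild type crypts. All 4 within-array ratios were above 0, though 1 of them was 0.01, and the groups did not overlap within either replicate but overlapped across them. The log2 change averaged 0.58 (SE 0.25, n = 2, limma adjusted p = 0.380), with 0.27 in replicate 1 and 0.89 in replicate 2.

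Rgs13, which shortens G protein signals, was read at chr1:145986491-145986550 (minus strand). Its signals in replicate 1 were 982 and 816 in deleted crypts, against 763 and 614 in wild type crypts. In replicate 2 they were 275 and 231 in deleted crypts, against 515 and 573 in wild type crypts. The replicates went opposite ways, each in both dye orientations, at 0.39 in replicate 1 and -1.11 in replicate 2. The mean log2 change of -0.36 (SE 0.38, n = 2, limma adjusted p = 0.693) was smaller than the gap between the replicates.

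The eicosanoid members differed from each other. Ptgs1, the constitutive cyclooxygenase that opens prostaglandin synthesis, was read at chr2:36105892-36105951 (plus strand). Its signals in replicate 1 were 437 and 285 in deleted crypts, against 272 and 253 in wild type crypts. In replicate 2 they were 478 and 607 in deleted crypts, against 225 and 243 in wild type crypts. Every deleted measurement was above every wild type one, as for 8.44% of the genes tested. Ptgs1 had log2 changes of 0.43 and 1.20 and a mean of 0.82 (SE 0.27, n = 2), or 1.76-fold, and a limma adjusted p of 0.303. Without replicate 1 the log2 change was 1.20, and without replicate 2 it was 0.43, each from 1 crypt replicate.

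Alox5ap, the protein that presents arachidonic acid to 5-lipoxygenase in leukotriene synthesis, was read at chr5:150099347-150099406 (plus strand). Its signals were 1961, 1511, 1238 and 1210 in deleted crypts, against 1616, 1546, 1659 and 1405 in wild type crypts, with replicate 1 first in each group. The groups overlapped. The log2 change was 0.12 in replicate 1 and -0.32 in replicate 2 (mean -0.10, SE 0.23, n = 2, limma adjusted p = 0.880).

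For the structural member Dclk1 the probe tested, A_52_P563818, had signals of 873, 629, 551 and 718 in deleted crypts, against 689, 648, 598 and 611 in wild type crypts, and the groups overlapped. Its log2 change was 0.10 (SE 0.22, n = 2, limma adjusted p = 0.860). The other detected Dclk1 probes gave a mean of 0.06 for A_51_P270355 and -0.27 for A_51_P193036, whose replicates read 0.21 and -0.75. A change in Dclk1 thus depended on the probe and the replicate. Avil, an actin-bundling protein of the tuft cell's apical tuft, had signals of 208, 290 and 309 in deleted crypts, against 217, 225 and 229 in wild type crypts, since 1 array of replicate 1 had no usable spot. Its log2 change was -0.06 in replicate 1 and 0.40 in replicate 2 (mean 0.17, SE 0.24, n = 2, limma adjusted p = 0.778).

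Of the members below the background criterion, Gfi1b, a zinc finger repressor of blood and tuft cells read at chr2:28464982-28465041 (minus strand), had signals of 152, 172, 198 and 197 in deleted crypts, against 119, 158, 164 and 144 in wild type crypts. Its within-array log2 ratios were 0.36, 0.12, 0.27 and 0.44. Il17rb, the IL-25 receptor subunit, was read by A_51_P464838 at chr14:30809514-30809573 (minus strand), a probe that the annotation ties to no RefSeq transcript. Its signals were 204, 214, 249.3 and 261 in deleted crypts, against 194, 195, 170 and 181 in wild type crypts. The groups overlapped for Gfi1b and not for Il17rb, where 8.44% of the genes tested had every deleted measurement above every wild type one. All 4 ratios of both genes were above 0, which 16.3% of the genes tested also showed, as did Plcg2, Ptgs1 and Trpm5. The other Il17rb probe, A_52_P604864 (chr14:30819260-30819319), was not above background in any crypt measurement.

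**Figure D2:**
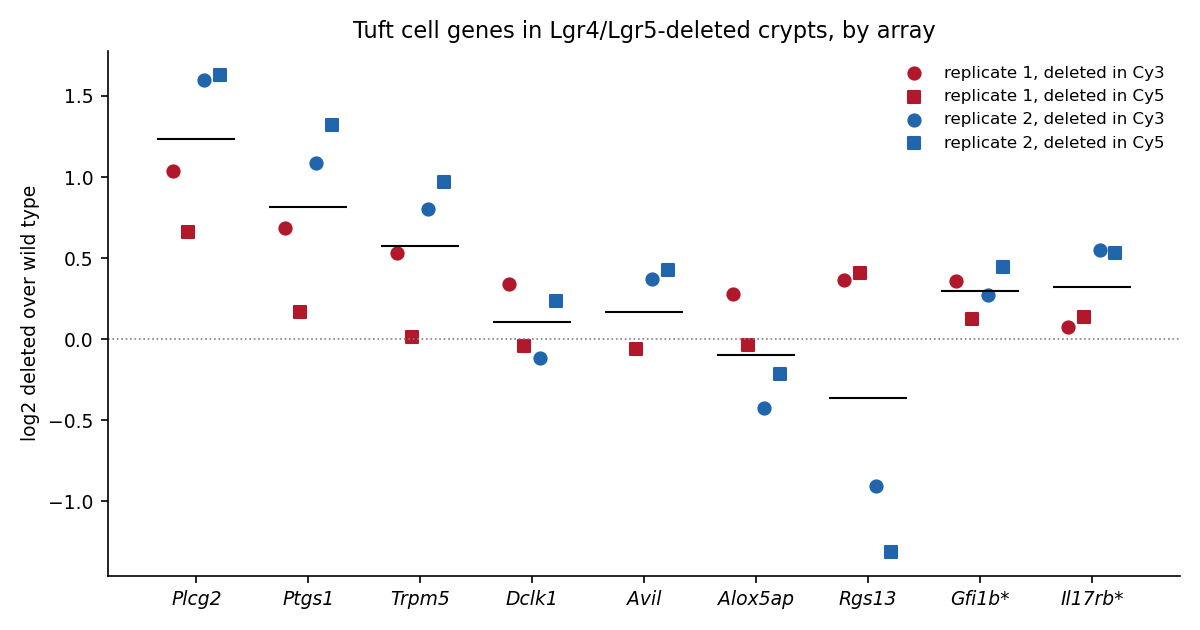
Log2 signal ratio of 9 tuft cell genes, deleted over wild type crypts, on each of the 4 arrays (red, replicate 1; blue, replicate 2; circles, deleted in Cy3; squares, deleted in Cy5); the line is the mean of the replicates and asterisks mark genes that were not tested. Plcg2, Ptgs1 and Trpm5 lie above 0 on all 4 arrays, as do Gfi1b and Il17rb, and Rgs13 divides by replicate.

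Markers of other cells moved beside these genes in the crypts. All 9 T cell and intraepithelial lymphocyte markers were above 0, with a median log2 change of 1.79 and array medians of 1.58 and 1.501 in replicate 1 and 2.04 and 2.18 in replicate 2. Over the 7 of them with a value on every array, the summed signal ranged from 14820 to 18240 in deleted crypts, against 4340 to 5986 in wild type crypts. None of the 9 passed the adjusted limma threshold and 8 had an unadjusted p under 0.05. Of 4 B and plasma cell markers measured all were above 0 (median 0.31), with summed signals over 3 of them of 1624 to 2060 in deleted crypts, against 916 to 1324 in wild type crypts. Of 4 myeloid markers, 2 were above 0 (median 0.41). Of 9 mast cell markers, 4 were measured, 3 of them above 0 (median 0.56), and the tryptases Tpsb2 and Tpsab1 were above background on no array. No eosinophil or basophil marker was above background on any crypt array. All 5 enterocyte markers measured were above 0 (median 0.61), whereas all 3 Paneth markers measured were below 0 (median -0.79). Also below 0 were 3 of 5 goblet (median -0.07) and 4 of 7 enteroendocrine markers (median -0.14). The part of these cells in the Plcg2, Ptgs1 and Trpm5 values was not tested. The crypt preparations showed all 7 general epithelial markers above background.

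In organoids all 9 members with a probe were measured, and none passed the adjusted threshold on deletion of Lgr4 and Lgr5, where 0.0363% of 13788 genes passed (4 higher and 1 lower). Of the 9, 7 had a log2 change below 0, and the median was -0.26 against 0.01 over all genes. Both deleted cultures were below both wild type cultures for 5 members (Ptgs1, Trpm5, Avil, Dclk1 and Alox5ap), where 19.3% of all genes showed this. Both were above for 1 member, Plcg2, where 17.6% of all genes showed it, and the groups overlapped for Rgs13, Gfi1b and Il17rb. No member had an unadjusted p under 0.05 on the Cy5 signal, where 7.7% of all genes did (3.35% higher and 4.35% lower).

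Plcg2 had Cy5 signals of 2512 and 1810 in deleted organoids, against 1580 and 1159 in wild type organoids. On each slide the deleted culture was the higher, by 0.67 and 0.64 on the log2 scale. The log2 change was 0.66 (SE 0.28, n = 2 each, limma adjusted p = 0.660), and by the ratio to the reference it was 0.16. Trpm5 had signals of 176 and 185 in deleted organoids, against 221 and 308 in wild type organoids. Both deleted values were the lower, with a log2 change of -0.53 (SE 0.25, limma adjusted p = 0.696), and -0.23 by ratio. Rgs13 had 338 and 235 in deleted organoids, against 553 and 285 in wild type organoids, with the deleted culture lower on each slide and the groups overlapping across slides. Its log2 change was -0.49 (SE 0.38, limma adjusted p = 0.871).

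Ptgs1 had signals of 170 and 207 in deleted organoids, against 244 and 320 in wild type organoids. It was lower in the deleted culture on both slides, by 0.52 and 0.63, and the log2 change was -0.58 (SE 0.25, n = 2 each, limma adjusted p = 0.664), and -0.16 by ratio. Alox5ap had 342 and 337 in deleted organoids, against 391 and 365 in wild type organoids, a log2 change of -0.15 (SE 0.21, limma adjusted p = 0.947). The 2 genes of eicosanoid synthesis thus had lower Cy5 signals in both deleted cultures, Ptgs1 by the larger margin.

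Dclk1, here by A_51_P193036, the brightest of its probes in organoids, had 187 and 178 in deleted organoids, against 196 and 243 in wild type organoids, a log2 change of -0.26 (SE 0.23, limma adjusted p = 0.892). The 2 other detected Dclk1 probes gave -0.16 (A_52_P563818) and -0.23 (A_51_P270355), so all 3 were below 0. Avil had 104 and 102 in deleted organoids, against 131 and 154 in wild type organoids. Its log2 change was -0.46 by Cy5 (SE 0.22, limma adjusted p = 0.700) and -0.62 by ratio (SE 0.20, limma adjusted p = 0.972), and it was the only member with an unadjusted p under 0.05 on either measure. Gfi1b had 105.4 and 99.8 in deleted organoids, against 102 and 115 in wild type organoids, with log2 changes of -0.08 by Cy5 and 0.21 by ratio. Il17rb had 155 and 117 in deleted organoids, against 126 and 130 in wild type organoids, with 0.07 by Cy5 and -0.17 by ratio. For these last 2 genes the sign depended on the measure. By ratio the median of the 9 members was -0.16, and 0 of all 13788 genes passed the limma threshold (552, or 4%, at an unadjusted p under 0.05).

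**Figure D3:**
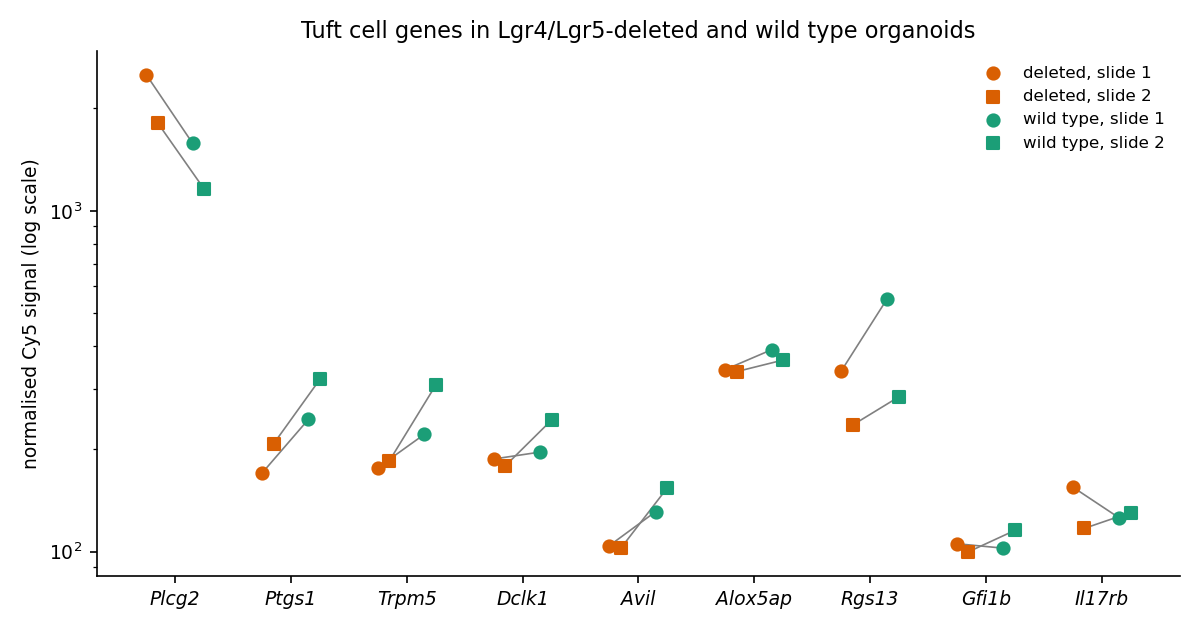
Normalised Cy5 signal (log scale) of 9 tuft cell genes in deleted (left, orange) and wild type organoids (right, green); lines join the cultures hybridised on the same slide. Plcg2 is higher in the deleted culture on both slides, and Ptgs1, Trpm5, Avil, Dclk1, Alox5ap and Rgs13 are lower on both.

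Most T cell and mast cell markers were dark in the deletion organoids, whereas most B cell and myeloid markers were not. Of the 9 T cell and intraepithelial lymphocyte markers, Cd3d, Cd3g, Cd8a, Cd7, Gzma and Gzmb were above background in no deletion culture, and the 3 measured had a median log2 change of -0.03. The summed signals of those 3 were 638 and 534 in deleted organoids, against 565 and 621 in wild type organoids. The mast cell list had 7 of 9 markers above background in no culture, and Cd79a and Ms4a1 of B cells were also dark. Plcg2, Ptgs1 and Trpm5 were above background in all 4 of these cultures. On the Cy5 signal, enterocyte markers were above 0 for 5 of 5 in organoids too (median 0.55). So were all 7 general epithelial (median 0.31) and all 5 goblet markers (median 0.54). All 4 Paneth cell markers measured were below 0 (median -0.71), as were 6 of 7 enteroendocrine markers (median -0.12). By ratio, 3 of 5 enterocyte, 3 of 7 epithelial and 4 of 5 goblet markers were above 0 (medians 0.10, -0.03 and 0.05). Also by ratio, 3 of 4 Paneth and 4 of 7 enteroendocrine markers were below 0 (medians -0.46 and -0.0071).

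Withdrawal of R-spondin for 1 day was measured in 1 culture of each kind, so a difference has no replicate check and no p-value, and a gene was called where its log2 difference was at least 1 in size. Of the 9 members 1 was called, Rgs13, higher without R-spondin, where 4.51% of 17164 genes were called higher and 6.47% lower. All 9 members had a log2 ratio difference above 0, which held for 57.6% of all genes, and their median was 0.29 against 0.07. On the Cy5 signal alone 6 of the 9 were above 0.

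Rgs13 had a Cy5 signal of 490 without R-spondin, against 190 with it. Its log2 ratio to the reference RNA was 2.55 without R-spondin and 1.44 with it, a difference of 1.11, or 1.37 by Cy5. Plcg2 had 5924 without R-spondin and 3013 with it, a difference of 0.88 by ratio and 0.98 by Cy5. Trpm5 had 311 without R-spondin and 218 with it, a difference of 0.49 by ratio. These signalling genes were the higher without R-spondin on both measures.

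Dclk1 (A_51_P193036) had 287 without R-spondin and 185 with it, a difference of 0.70 by ratio, and its other detected probes gave 0.50 and 0.51. Avil had 171 without R-spondin and 146 with it, and Gfi1b had 150 without it and 129 with it, each with a ratio difference of 0.29. The 3 remaining genes were close to level between the cultures. Ptgs1 had 218 without R-spondin and 219 with it (0.18 by ratio), Alox5ap 539 without it and 544 with it (0.11 by ratio), and Il17rb 292 without it and 306 with it (0.06 by ratio). The other Il17rb probe, A_52_P604864, was above background with R-spondin and not without it, at least 1.25-fold lower without it. Against the commercial mouse reference RNA, Ptgs1 was low in both cultures, at log2 ratios of -5.85 without R-spondin and -6.03 with it, whereas Trpm5 was above it, at 1.65 without and 1.16 with. Beside these values, all 7 enteroendocrine markers measured were above 0 without R-spondin (median 0.68), 4 of 5 goblet markers were (median 0.68), and all 3 Paneth markers measured were below 0 (median -0.88).

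**Figure D4:**
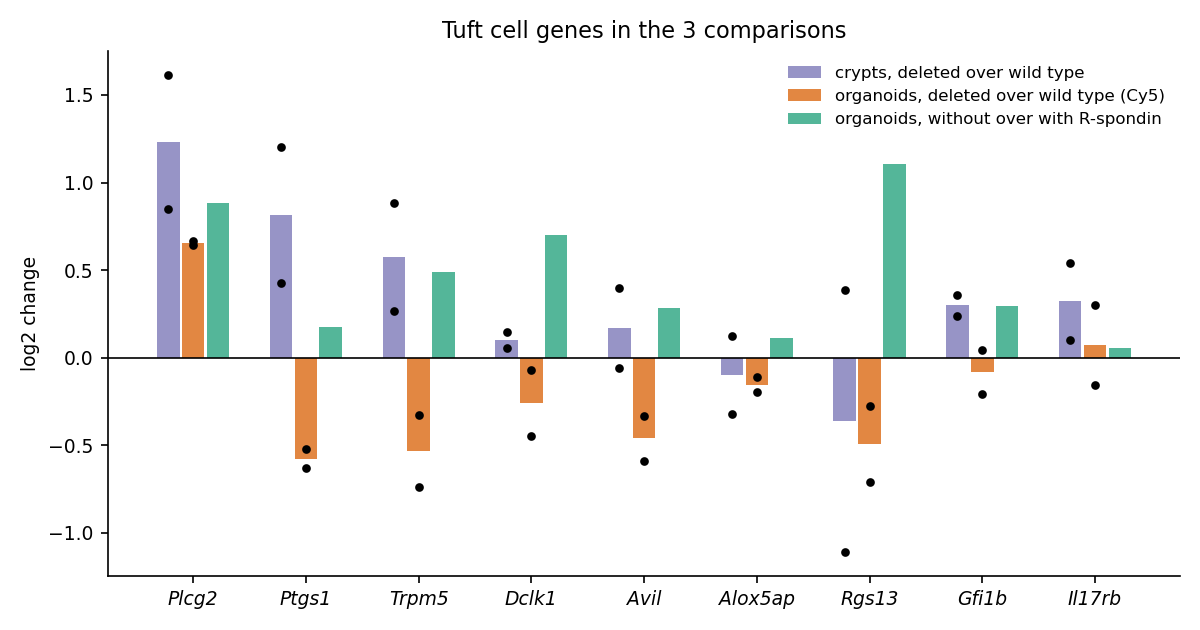
Log2 change of 9 tuft cell genes in deleted over wild type crypts, in deleted over wild type organoids (Cy5 signal) and in organoids without over with R-spondin (ratio); dots are the crypt replicates or the organoid slides, and withdrawal has 1 culture of each kind. Plcg2 is above 0 in all 3, and Trpm5 and Ptgs1 are above 0 in crypts and below 0 in deleted organoids.

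The crypt change was set against the organoid change on deletion in a single limma test of the difference. The 7 members in both all had a positive difference, crypt minus organoid, with a median of 0.58 against -0.02 over all genes, and none passed, where 0.503% of 10941 genes did. Ptgs1 had the largest difference among them, 1.39 (SE 0.33, limma adjusted p = 0.168). Trpm5 had 1.11 (SE 0.33, limma adjusted p = 0.288), and these were the only members with an unadjusted p under 0.05, where 4.86% of all genes were higher at that level. Both crypt replicates were higher and both organoid slides lower for these 2 genes and for Dclk1 by A_52_P563818, a pattern of 5.25% of all genes. The 2 other detected Dclk1 probes were below 0 in crypt replicate 2, at -0.13 (A_51_P270355) and -0.75 (A_51_P193036). Plcg2 was higher in both replicates and on both slides, as were 14.5% of all genes, and its difference of 0.58 (adjusted p = 0.587, limma) did not pass. Without crypt replicate 1, which leaves 1 crypt value, the differences were 1.42 for Trpm5 and 1.78 for Ptgs1. Over all 5 alternative settings they ranged from 0.80 to 1.42 for Trpm5 and from 0.97 to 1.78 for Ptgs1. The difference between withdrawal and deletion could not be tested, since withdrawal has 1 culture of each kind. By ratio all 9 members were above 0 on withdrawal, as were 57.6% of all genes, whatever their sign on deletion. By Cy5 in both comparisons, 7 members were below 0 on deletion in organoids, Rgs13, Dclk1 and Trpm5 among them. Of these, 5 were above 0 on withdrawal, the exceptions being Ptgs1 (-0.0044) and Alox5ap (-0.012). On withdrawal 9557 of all 17164 genes were above 0 by Cy5. The share of all genes with opposite signs on deletion and withdrawal was not counted.

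Of the other tuft lists, no gene passed the limma threshold in either deletion comparison. In crypts, 4 of 7 measured genes of taste-type transduction were above 0 (median 0.19), as were 4 of 7 eicosanoid enzymes (median 0.04) and 18 of 24 tuft transcription and effector genes (median 0.32). At an unadjusted p under 0.05, the transcription and effector list had 7 genes higher and 2 lower in deleted crypts, the taste-type list 1 higher and 1 lower, and the eicosanoid list 1 lower, where 6.43% of all genes were higher and 7.3% lower at that level. In the transcription and effector list, Ptprc, the pan-leukocyte phosphatase that some tuft cells carry, had the largest change at 1.70 (limma adjusted p = 0.109), with 1.37 in replicate 1 and 2.02 in replicate 2. Fyb, an adaptor of T cells, had 1.33 (0.73 and 1.93) and Ptpn6, a phosphatase of blood cells, had 1.32 (0.62 and 2.02). These moved beside the T cell markers given above. Ptprc was above background in no deletion organoid culture, whereas Fyb and Ptpn6 were measured there, with log2 changes of -0.21 and 0.05. Sox9, a Wnt-dependent factor of crypt progenitors that tuft cells keep, had -1.23 in crypts (limma adjusted p = 0.163), and -1.96 in organoids (limma adjusted p = 0.346).

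In deleted organoids the median log2 change was 0.06 over 7 taste-type genes, -0.11 over 8 eicosanoid enzymes and 0.04 over 21 transcription and effector genes, with 0, 3 and 3 genes lower and none higher at an unadjusted p under 0.05, where 4.35% of all genes were lower and 3.35% higher. Pla2g4a, the cytosolic phospholipase that frees arachidonic acid, had -1.66 (-2.52 and -0.80 on the slides, limma adjusted p = 0.533). Its withdrawal difference, without minus with R-spondin, was -3.04, and that of Sox9 was -2.83. Rgs2, a regulator of G protein signals, was higher without R-spondin by 3.57, the prostaglandin dehydrogenase Hpgd by 2.04, the leukotriene C4 synthase Ltc4s by 1.52 and Pik3r5, a phosphoinositide kinase subunit, by 1.07, each from 1 pair of cultures. Pou2f3, the factor that tuft cells need to form, was above background in 1 of 4 wild type crypt measurements, in no deleted crypt measurement and in no organoid culture.

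The promoters of the members were read from RefSeq (GRCm38.p6), 250 bases upstream of each start, for the 9 genes that had an entry, with 10 windows in all because Dclk1 has 2 starts. The octamer ATGCAAAT, the motif of the POU factor family to which Pou2f3 belongs, was in 0 of the 10 windows on either strand, and in 1.6% of 32851 windows of that length. The TCF motif CTTTGAT, read by the factors at the end of the Wnt chain, was in 1 of the 10 windows, and in 3.21% of all windows. That window is at the first start of Dclk1, chr3:55242114-55242363 (plus strand), where the long transcripts begin. It is printed, with the motif in capitals, beside the window of the other start, chr3:55461478-55461727 (plus strand), which holds neither motif.
Dclk1 first start: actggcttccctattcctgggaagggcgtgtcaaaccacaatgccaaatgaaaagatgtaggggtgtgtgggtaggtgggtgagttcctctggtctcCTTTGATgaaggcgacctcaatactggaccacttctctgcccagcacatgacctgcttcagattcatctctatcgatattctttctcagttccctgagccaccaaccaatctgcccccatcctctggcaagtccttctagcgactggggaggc
Dclk1 other start: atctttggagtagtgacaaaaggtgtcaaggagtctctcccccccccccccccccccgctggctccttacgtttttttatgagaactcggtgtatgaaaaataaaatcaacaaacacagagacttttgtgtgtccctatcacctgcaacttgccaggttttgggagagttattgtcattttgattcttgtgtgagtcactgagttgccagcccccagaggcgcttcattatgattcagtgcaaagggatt
A match describes these letters only.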

How the data were processed

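Per the file headers, the arrays were read with Agilent Feature Extraction 10.5.1.1, whereas the submitters' processing notes name 8.5.1.1. The deposited scanner files hold spot and background intensity, as mean pixel values on the crypt and R-spondin arrays and median pixel values on the organoid deletion arrays. The deposited log10 ratios, Cy5 over Cy3, also fill the series matrix, where both crypt arrays with deleted RNA in Cy3 have the sign turned to deleted over wild type. In limma 3.58.1 (R 4.3.3), intensities were corrected with normexp (offset 50). Crypt and withdrawal ratios were loess-normalised with control spots at weight 0, and Cy5 signals of organoids were quantile-normalised. Spots marked as outliers were dropped. A probe needed a call well above background, by the scanner software, on all arrays of 1 group or more, and a gene was read by its brightest such probe. Dye swaps were averaged, so that each crypt replicate counted once. Benjamini-Hochberg adjustment ran over all genes tested. The members, other lists and tests were chosen with earlier results of these data known. The rule for named genes gives every member its values, and of the other tuft lists names those that passed, plus up to 4 a list with the largest log2 change of at least 1 the same way in both replicates. The code was tested on simulated data. The Apc data that the series names were not analysed here.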

Additional observations from a re-analysis of the deposited data

How the results depend on the processing

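With 2 replicates a group, counts of calls over all genes moved widely with the processing. In crypts 6 genes passed, against 501 with the scanner software's processed signals, 51 with no background correction, 334 with median centring, 41 with outlier spots kept, 0 with no filter on dim probes, 95 with the mean over a gene's probes, 616 with 4 arrays and the replicate as a random block, 416 from the series matrix and 13 to 712 on leaving out a replicate. In organoids 5 passed, against 0 by ratio to the reference, 85 with processed signals, 1 with no background correction, 42 with scaling to the 75th percentile, 1 with outliers kept, 0 with no filter, 0 with probe means, 9 from the series matrix and 4 to 25 on leaving out a culture. On withdrawal 1884 genes were called, against 2841 with processed signals and 3040 from the series matrix. For the difference between crypts and organoids 55 passed, against 0 by the organoid ratio and 0 to 928 on leaving out a replicate or slide.

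The organoid cultures were paired by slide only. With the slide as a replicate block 516 genes passed (300 lower, 216 higher), none of them a member (lowest limma adjusted p 0.0821, Plcg2), so the block changed no member's call.

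Of 76 member values recomputed in crypts, 5 passed the threshold. Plcg2 passed under median centring (1.59, limma adjusted p = 0.00521), where 334 of 12204 genes passed. It also passed with the random block (1.23, limma adjusted p = 0.0126), where 616 of 12077 genes did. Ptgs1 passed with processed signals (1.18, limma adjusted p = 0.0409), where 501 of 12204 genes did. The remaining passes were Plcg2 (1.62) and Ptgs1 (1.20) without replicate 1. That fit leaves 1 crypt replicate and takes its spread from the organoid arrays. Over all their crypt alternatives the limma adjusted p ranged from 0.00521 to 0.450 for Plcg2 and from 0.0409 to 0.744 for Ptgs1, with both above 0 throughout. Of 126 recomputed in organoids 0 passed. Of 35 of the difference, the only passes, Trpm5 and Ptgs1, came without crypt replicate 1, which leaves 1 crypt value.

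The sign of some changes turned. In crypts it turned for Alox5ap (0.10 with median centring, -0.32 to 0.12 on leaving out a replicate), Dclk1 (-0.036 with probe means), and for Rgs13 (-1.11 to 0.39) and Avil (-0.061 to 0.40) on leaving out a replicate. In organoids it turned for Gfi1b (0.21 by ratio, 0 from the matrix, 0.0039 without wild type replicate 2), Il17rb (-0.17 by ratio, -0.021 with the 75th percentile, -0.13 to 0.27 on leaving out a culture), Alox5ap (0.0029 with processed signals, 0.52 from the matrix), Ptgs1 (0.28) and Rgs13 (0.10), these from the matrix, which rests on the poor Cy3 channel. For the difference it turned for Alox5ap (-0.017 by organoid ratio, -0.17 without crypt replicate 1) and Rgs13 (-0.16 by ratio, -0.084 without organoid slide 1, -0.61 to 0.88 over the replicates and slides left out). The median of the members ranged from 0.17 to 0.56 in crypts, -0.31 to 0.0027 in organoids and 0.22 to 0.62 on withdrawal. The causes were not tested. With few arrays every member is measured imprecisely, and Gfi1b, Il17rb and Avil were not above background in every crypt measurement.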
